A study of Homo sapiens with 4 samples.

Results

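The 9 genes described here are classical targets of the transcription factor NRF2: SLC7A11, GCLC, GCLM, TXNRD1, SRXN1, NQO1, AKR1C1, AKR1B10 and HMOX1. They were chosen by gene symbol among the rows placed on a chromosome, not on a patch or scaffold, and they occupy 10 of 56627 such rows, because SRXN1 stands on 2 rows. The table holds 56521 genes in all, and 15057 of them, the 9 included, had a mean of at least 1 FPKM. FPKM counts sequenced fragments relative to exon length and library size, so levels in FPKM can be compared between genes. RNA was sequenced from FaDu, an established line of squamous carcinoma of the hypopharynx, in 4 groups with 1 library each. N-scr was scrambled-control cells in normoxia (air with 5% CO2), N-si was TET1-knockdown cells in normoxia, H-scr was scrambled-control cells after 19 h at 1% O2, 5% CO2 and 94% N2, and H-si was TET1-knockdown cells after the same hypoxia. All 4 groups share the parent line and the culture medium, and the study's methods describe the knockdown as a short hairpin RNA delivered by lentivirus, so control and knockdown cells are separately infected populations. No group had a second library, so no difference below has a replicate check and no test was run.

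NRF2, encoded by NFE2L2, is kept low in unstressed cells because the adaptor KEAP1 holds it for ubiquitination by a CUL3 ligase. When oxidants or electrophiles modify KEAP1, NRF2 accumulates, pairs with a small MAF protein and binds antioxidant response elements, while BACH1 competes for the same elements as a repressor. The targets supply cystine and glutathione, keep thioredoxin reduced, detoxify quinones and carbonyls, and break down heme. In squamous carcinomas the pathway is known for frequent activation by mutation of NFE2L2 or KEAP1. TET1 is a dioxygenase that oxidises 5-methylcytosine in DNA. The comparisons ask how these antioxidant genes responded to hypoxia and to TET1 knockdown, and whether the hypoxia response differed between scrambled and knockdown cells.

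The element itself is shown first, because it is what the 9 genes are known to share. The core searched was TGACNNNGC on both strands, and the stricter form was TGACTCAGC, which is 1 case of the core. RefSeq start sites on GRCh38.p14 were given for NQO1, GCLC, GCLM, TXNRD1, SRXN1 and AKR1C1, with no entry for HMOX1, SLC7A11 and AKR1B10. The entries were placed on hg19 by exact match. In a window from 1000 bases before the start site to 200 bases from it on, 4 of these 6 genes held the core, and 38.2% of 20131 canonical start sites did. Only NQO1 of the 6 held the strict form, which 1.47% of the same start sites held. Within the 300 bases of the RefSeq entries, GCLM and TXNRD1 held the core, as did 13.3% of 34796 entries. The fragments of hg19 that carry it follow for these 4 genes, 5′ to 3′ on the strand that carries the core, with the core in capitals. They lie at chr16:69760890-69760938 on the minus strand (NQO1, 455 bases before the start site), at chr6:53410741-53410789 on the plus strand (GCLC, 870 bases before), at chr1:94374992-94375040 on the plus strand (GCLM, 34 bases before) and at chr12:104680688-104680736 on the minus strand (TXNRD1, 102 bases before the downstream of its start sites).
NQO1: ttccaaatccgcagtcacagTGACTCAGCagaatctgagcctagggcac
GCLC: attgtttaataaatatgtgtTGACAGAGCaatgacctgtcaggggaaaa
GCLM: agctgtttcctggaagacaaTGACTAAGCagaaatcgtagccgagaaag
TXNRD1: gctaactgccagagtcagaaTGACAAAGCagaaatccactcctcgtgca
The GCLM and TXNRD1 fragments share an uninterrupted run of 11 bases, AAGCAGAAATC, which begins inside the core and runs past it. The upstream start site of TXNRD1 had further cores 99 and 8 bases before it. SRXN1 and AKR1C1 had no core in the 1200-base window. A match is a match of letters, and binding was not measured.

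Depths recovered from the FPKM values were 22420000 to 24520000 reads per library, and 95% counting intervals below rest on them. TET1 was listed at 0.129 FPKM in N-scr, 0.0493 FPKM in N-si, 0.331 FPKM in H-scr and 0.122 FPKM in H-si. The listed level was lower in the knockdown library in both oxygen states, but it rests on approximately 28, 11, 76 and 26 reads. The counting interval of the log2 knockdown change was -2.59 to -0.39 in normoxia and -2.12 to -0.76 in hypoxia. With 0.25 of the reads assumed, these became -3.90 to 0.82 and -3.15 to -0.15. On that assumption counting error leaves the direction in normoxia open. Of 9 markers of blood, endothelial, fibroblast and liver cells, 7 were under 0.5 FPKM in every library. The endothelial cadherin CDH5 and the collagen COL1A1 were not, and the summed level of the 9 was 14.3 FPKM in N-scr, 36.2 FPKM in N-si, 45.1 FPKM in H-scr and 83.0 FPKM in H-si. The 7 epithelial markers summed to 6147 FPKM in N-scr, 1989 FPKM in N-si, 7632 FPKM in H-scr and 2870 FPKM in H-si, a sum made mostly of keratins. In each knockdown library KRT5, KRT8, KRT18 and SFN were lower than in its scrambled partner, EPCAM and CDH1 were higher, and TP63 ranged from 42.1 to 54.8 FPKM over the 4 libraries. The part of these marker differences in the results below was not tested. In bulk RNA, fewer cells of a type and less RNA per cell cannot be told apart.

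Levels of the 9 genes spanned from 0.54 FPKM to 738 FPKM. NQO1 (mean 587 FPKM) and TXNRD1 (399) stood at the top in every library. GCLC (102) and GCLM (63.0) formed the next tier, followed by SRXN1 (15.4), HMOX1 (15.0), SLC7A11 (9.49) and AKR1C1 (6.0), with AKR1B10 (1.13) last. SRXN1 and HMOX1 cannot be ranked against each other, since HMOX1 was above SRXN1 in both scrambled libraries and below it in both knockdown libraries. NQO1, GCLC, GCLM, TXNRD1, SLC7A11 and SRXN1 had their highest level in N-si. How common a peak in N-si was among all genes was not computed. HMOX1 was highest in H-scr, and AKR1C1 and AKR1B10 were highest in H-si.

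**Figure D1:**
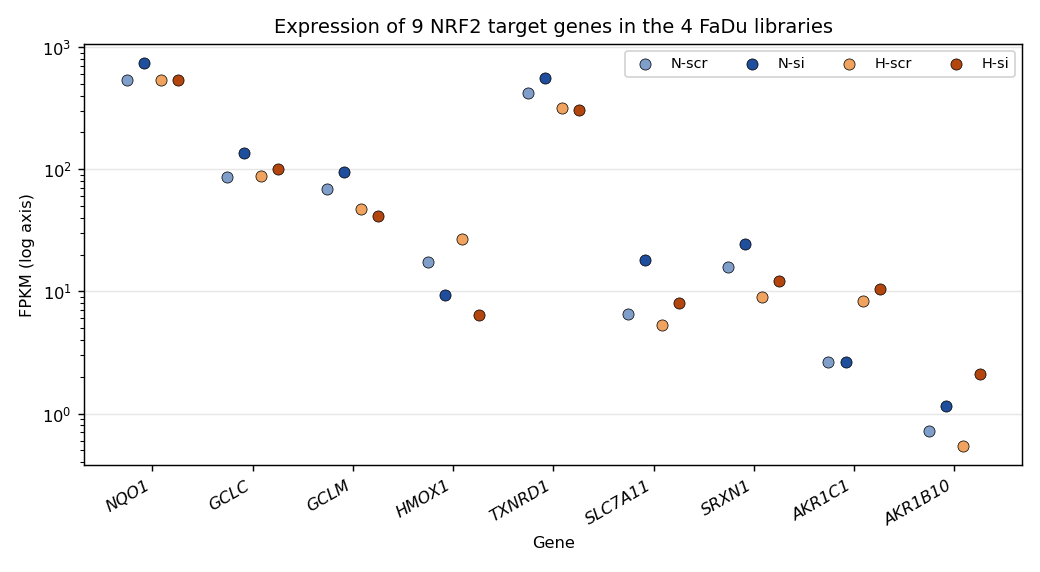
FPKM of each of the 9 genes on a log axis, with 1 point per library (N-scr, N-si, H-scr, H-si) and no error bar because each group had 1 library. NQO1 and TXNRD1 lie above 300 FPKM in all 4 libraries, and of the 9 genes only HMOX1 has its knockdown point below the scrambled point in both oxygen states.

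Changes were taken as differences of log2(FPKM + 0.1), which understates the change of low genes, and all genes with a mean of at least 1 FPKM gave the background. In normoxia 8 of the 9 genes were higher in TET1-knockdown than in scrambled cells, HMOX1 being the exception, against 60.3% of all genes. AKR1C1 is 1 of the 8 by a log2 change of only 0.02, which turned negative under both median-of-ratios and upper-quartile scaling. The median log2 change of the 9 was 0.47, and that of all genes was 0.15. SLC7A11 was at least 2-fold higher, a size reached by 12.1% of all genes, and no member was at least 2-fold lower, against 5.56%. Counts this close to the background are not a result about the 9 genes.

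Under hypoxia the median difference between knockdown and scrambled cells was smaller, while HMOX1, AKR1B10 and AKR1C1 lay further apart than in normoxia. Of the 9 genes 6 were higher in H-si than in H-scr, against 56.5% of all genes, with a median log2 difference of 0.19 beside 0.10 for all genes. NQO1 counts among the 6 through a log2 difference of 0.01, which turned negative under 2 scalings, and TXNRD1, at -0.07, turned to 0.00 under TPM. AKR1B10 was at least 2-fold higher, as were 12% of all genes, and HMOX1 was at least 2-fold lower, as were 8.35%.

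In scrambled cells 8 of the 9 genes stayed within 2-fold in hypoxia. Lower levels in H-scr than in N-scr were seen in 5 of 9 genes and in 46.4% of all genes, and the near-zero changes of NQO1 and GCLC became negative under 2 scalings. The median log2 change was -0.29, and that of all genes was 0.05. AKR1C1 was at least 2-fold higher (12.9% of all genes) and no member was at least 2-fold lower (4.53%).

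In TET1-knockdown cells 7 of 9 genes were lower in hypoxia than in normoxia, against 47.8% of all genes, and none of the 7 changed direction under another scaling. The median log2 change was -0.53 beside 0.03 for all genes. GCLM and SLC7A11 were at least 2-fold lower (8.66% of all genes), and AKR1C1 was at least 2-fold higher (12.5%). SRXN1, at -0.99, passed 2-fold under median-of-ratios scaling (-1.09).

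The difference of hypoxia responses, TET1-knockdown less scrambled, was negative for 7 of 9 genes and for 55.4% of all genes. Its median was -0.46 on the log2 scale, against -0.06 for all genes. HMOX1 had a difference past 2-fold in the negative direction (7.86% of all genes) and AKR1B10 in the positive direction (4.87%). The difference of AKR1B10, 1.18 with an interval of 0.17 to 2.26, became 0.69 with a pseudocount of 1, and at 0.25 of the reads its interval, -0.87 to 3.30, holds 0. SRXN1 counts among the 7 at -0.18, with an interval of -0.38 to 0.03, and was at 0.01 on its second row. The hypoxia contrasts and the knockdown contrasts are built from the same 4 libraries, so these counts are not independent of each other. In particular, the N-si library enters both the higher normoxic levels after knockdown and the larger decreases under hypoxia in knockdown cells.

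**Figure D2:**
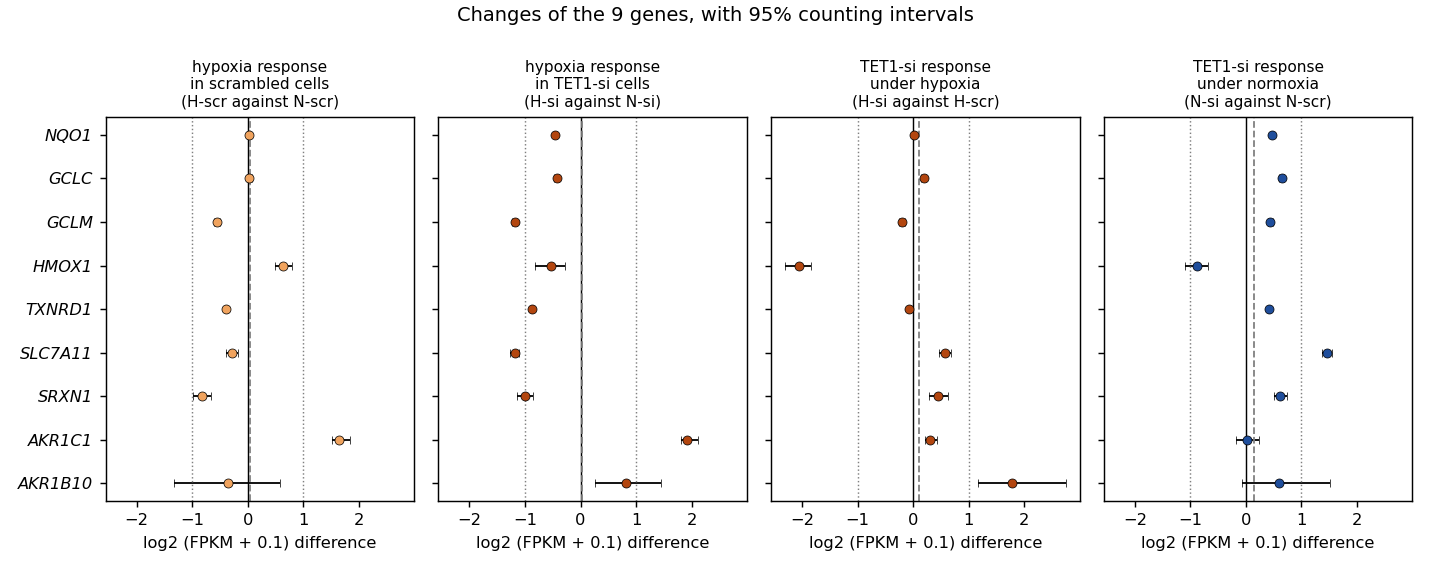
Differences of log2(FPKM + 0.1) for the 9 genes in the 4 contrasts, with bars for the 95% counting interval, dotted lines at 2-fold and a dashed line at the median of all genes. HMOX1 lies at -2.06 in the knockdown contrast under hypoxia, AKR1C1 lies beyond 2-fold in both hypoxia contrasts, and 8 of 9 points lie above 0 in the knockdown contrast under normoxia.

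Glutathione supply came first among the roles. SLC7A11, the cystine-importing subunit of system xc-, was at 6.55 FPKM in N-scr, 18.1 FPKM in N-si, 5.36 FPKM in H-scr and 7.97 FPKM in H-si. Both knockdown libraries were above both scrambled ones, and N-si stood far above the other 3. The knockdown level was 2.76-fold the scrambled level in normoxia (log2 change 1.45, counting interval 1.38 to 1.55), which put SLC7A11 above 93.8% of all genes in that contrast. Under hypoxia the ratio was 1.49 (log2 difference 0.57, interval 0.47 to 0.68). Its FPKM was 2.27-fold lower in hypoxia than in normoxia in knockdown cells and 1.22-fold lower in scrambled cells.

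GCLC, the catalytic subunit of glutamate-cysteine ligase, the enzyme that makes the first and rate-limiting step of glutathione synthesis, was at 86.2 FPKM in N-scr, 135 FPKM in N-si, 87.7 FPKM in H-scr and 99.9 FPKM in H-si. The other 3 libraries lay close together and N-si stood above them, by 1.56-fold over N-scr. With hypoxia GCLC had a log2 change of 0.02 in scrambled cells, with an interval of -0.02 to 0.07 that holds 0, and -0.43 in knockdown cells.

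GCLM, the modifier subunit that lowers feedback inhibition of the same enzyme, was at 69.3 FPKM in N-scr, 94.0 FPKM in N-si, 47.3 FPKM in H-scr and 41.3 FPKM in H-si. Unlike GCLC, it was lower in both hypoxia libraries than in either normoxia library. The hypoxic level of GCLM was 1.47-fold lower than the normoxic one in scrambled cells and 2.28-fold lower in knockdown cells. The knockdown contrast of GCLM had opposite directions in the 2 oxygen states, a log2 difference of 0.44 in normoxia and -0.20 (interval -0.26 to -0.14) in hypoxia.

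The thioredoxin arm had the same order of libraries as GCLM for its reductase. TXNRD1, the cytosolic selenoenzyme that reduces thioredoxin with NADPH, was at 417 FPKM in N-scr, 557 FPKM in N-si, 317 FPKM in H-scr and 303 FPKM in H-si. In scrambled cells hypoxia gave a log2 change of -0.39, and in knockdown cells -0.88, with counting intervals of -0.42 to -0.37 and -0.90 to -0.86. The knockdown contrast was 0.42 in normoxia and -0.07 in hypoxia on the same scale, and the latter is the value that reached 0.00 under TPM.

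SRXN1, sulfiredoxin, which reduces overoxidised peroxiredoxins, was at 15.9 FPKM in N-scr, 24.5 FPKM in N-si, 8.99 FPKM in H-scr and 12.3 FPKM in H-si on its longer row (ENSG00000172070, chr20:627259-656444). Each hypoxia library was below both normoxia libraries, and each knockdown library was above its scrambled partner. The log2 changes were -0.82 and -0.99 with hypoxia in scrambled and knockdown cells, and 0.62 and 0.44 with knockdown in normoxia and hypoxia. On the shorter row (ENSG00000234516, chr20:627270-629157), which lies inside the longer one, SRXN1 was at 6.10, 10.2, 4.74 and 7.94 FPKM in the same order. That row gave -0.36 and -0.35 for the hypoxia responses and 0.73 in both knockdown contrasts. The knockdown direction was therefore shared by both rows. The log2 hypoxia response of SRXN1 was larger in size by the longer row, -0.82 against -0.36 in scrambled cells and -0.99 against -0.35 in knockdown cells. A readthrough transcript shares 90.4% of the 100-base windows of the SRXN1 transcript, so reads cannot be assigned to SRXN1 alone.

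Quinone and carbonyl detoxification held the most and the least abundant of the 9 genes. NQO1, which reduces quinones by transferring a pair of electrons at once, was at 532 FPKM in N-scr, 738 FPKM in N-si, 537 FPKM in H-scr and 540 FPKM in H-si. As for GCLC, N-si stood alone, 1.39-fold above N-scr. The other 3 libraries differed by so little that the counting interval of the hypoxia response in scrambled cells (-0.01 to 0.04 on the log2 scale) and that of the knockdown difference under hypoxia (-0.02 to 0.03) both hold 0. An antisense transcript shares 16.1% of the 100-base windows of NQO1, and the counting was not stated to use strand.

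AKR1C1, an aldo-keto reductase of steroids and lipid aldehydes, was at 2.62 FPKM in N-scr, 2.67 FPKM in N-si, 8.34 FPKM in H-scr and 10.4 FPKM in H-si. Here the oxygen state separated the libraries, and the normoxia pair did not differ beyond counting error (interval of the log2 change -0.18 to 0.23). The hypoxic level of AKR1C1 was 3.19 times the normoxic one in scrambled cells and 3.89 times in knockdown cells, log2 changes of 1.64 and 1.92 that were above those of 94.4% and 96.9% of all genes. Its paralog AKR1C2 shares 799 of the 6444 windows of 100 bases in AKR1C1, and assignment between them is uncertain. AKR1C2 was listed at 0 FPKM in N-scr, 0.0553 FPKM in N-si, 0.356 FPKM in H-scr and 0.182 FPKM in H-si, and AKR1C3 at 0.166, 0.0780, 0.146 and 1.14 in the same order. Neither paralog reached a mean of 1 FPKM.

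AKR1B10, an aldo-keto reductase of retinal and other carbonyls, was at 0.724 FPKM in N-scr, 1.15 FPKM in N-si, 0.540 FPKM in H-scr and 2.11 FPKM in H-si. These levels rest on approximately 23, 40, 19 and 66 reads. The knockdown contrast under hypoxia was 3.90-fold (log2 difference 1.78, interval 1.17 to 2.74), and the interval of the contrast in normoxia, -0.07 to 1.52, holds 0. The hypoxia response of AKR1B10 in scrambled cells, -0.36, had an interval of -1.33 to 0.57. Its paralog AKR1B1, aldose reductase, was far more abundant at 105 FPKM in N-scr, 142 FPKM in N-si, 86.3 FPKM in H-scr and 85.7 FPKM in H-si. AKR1B1 thus had its highest level in N-si, like NQO1 and GCLC. AKR1B15 was listed at 0, 0.0625, 0.0458 and 0.223 FPKM.

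HMOX1, heme oxygenase 1, which cleaves heme to biliverdin, iron and carbon monoxide, went against the other 8 genes in the normoxic knockdown contrast. Its level was 17.2 FPKM in N-scr, 9.30 FPKM in N-si, 26.9 FPKM in H-scr and 6.40 FPKM in H-si. Both knockdown libraries were below both scrambled ones, and the 2 extremes were the hypoxia libraries. The scrambled level was 1.85-fold the knockdown level in normoxia (log2 change -0.88, interval -1.10 to -0.68) and 4.21-fold in hypoxia (log2 difference -2.06, interval -2.31 to -1.85). The normoxic change passed 2-fold under median-of-ratios and upper-quartile scaling. With hypoxia HMOX1 was 1.56-fold higher in scrambled cells (log2 change 0.64, interval 0.48 to 0.80) and lower in knockdown cells (log2 change -0.53, interval -0.81 to -0.28, which reaches 0.00 if 0.25 of the reads is assumed). The difference of the responses was -1.17 on the log2 scale, with a counting interval of -1.49 to -0.88. HMOX1 was the 1 member to meet the study's 3 criteria, which ask that H-scr exceed 2 times H-si and also exceed N-scr, and that N-si not exceed N-scr, and 3.84% of all genes met them.

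Expression after knockdown also differed by chromosomal region, so each gene was set beside the protein-coding genes with a mean of at least 1 FPKM nearest to it, 25 on each side where the chromosome had that many. The neighbours of HMOX1 on chromosome 22 had a median log2 difference of -0.59 in the knockdown contrast under hypoxia and -0.51 in normoxia, while chromosome 22 as a whole had -0.08 and 0.03. HMOX1 lay below 49 of its 50 neighbours in hypoxia and below 33 of 50 in normoxia. Genes around TXNRD1 were lower after knockdown too, with medians of -0.35 in normoxia and -0.54 in hypoxia, and TXNRD1 stood above 44 and 39 of its 50 neighbours. SLC7A11 stood above 48 of its 50 neighbours in normoxia, whose median was 0.16, and AKR1B10 above 48 of 50 in hypoxia, whose median was -0.22. For SRXN1, with 33 neighbours, the normoxic value lay above 22 of them. How much of a member's value came from its region was not tested.

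**Figure D3:**
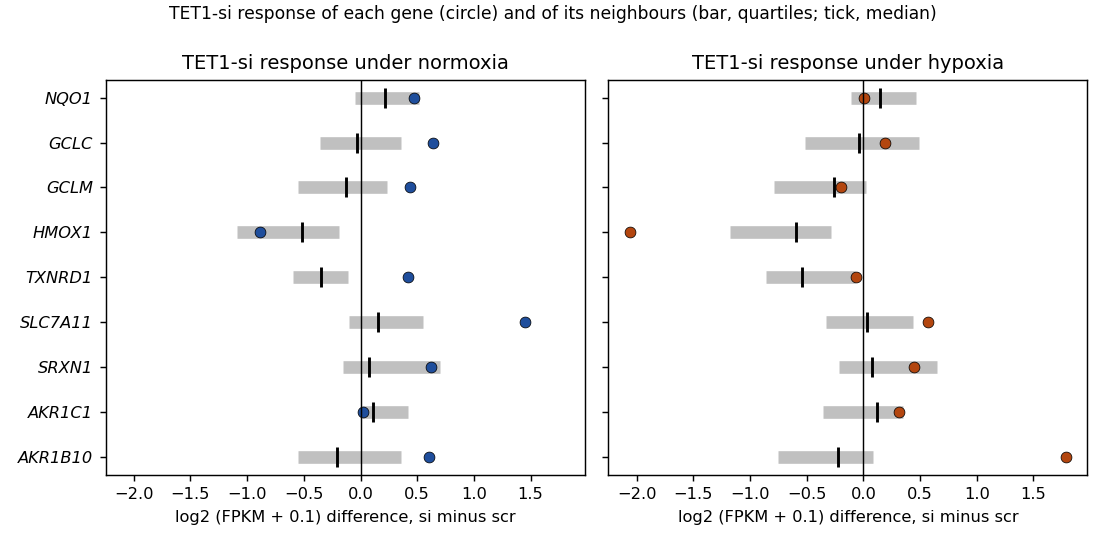
Knockdown response of each of the 9 genes (circle) and of the nearest protein-coding genes on its chromosome (grey bar, quartiles; black tick, median), as differences of log2(FPKM + 0.1), si minus scr. HMOX1 lies within the quartiles of its neighbours in normoxia and far below them in hypoxia. SLC7A11, AKR1B10 and TXNRD1 lie above the upper quartile in both panels, TXNRD1 only just in hypoxia (-0.067 against -0.076).

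Among the regulators of the pathway, NFE2L2 was at 61.9 FPKM in N-scr, 102 FPKM in N-si, 77.3 FPKM in H-scr and 114 FPKM in H-si. Both knockdown libraries were above both scrambled ones, with log2 differences of 0.71 in normoxia and 0.56 in hypoxia. The 50 neighbours of NFE2L2 on chromosome 2 had medians of 0.67 and 0.59, and the gene lay above 27 and 25 of them. KEAP1 was at 55.4, 70.0, 64.3 and 60.2 FPKM in the order used above, a narrow range with N-si again highest. BACH1 was at 2.58, 4.58, 5.27 and 6.88 FPKM, and its knockdown change of 0.81 in normoxia stood beside a median of 0.80 for its neighbours on chromosome 21. The small MAF genes diverged. MAFK was at 5.51 FPKM in N-scr, 12.8 FPKM in N-si, 12.0 FPKM in H-scr and 32.3 FPKM in H-si, higher with knockdown and higher with hypoxia. MAFF was at 6.11, 5.70, 21.5 and 4.90 FPKM in that order, so only H-scr was high, and MAFF met the study's 3 criteria as HMOX1 did. MAFF also lies on chromosome 22, and it was below all 50 of its neighbours in the knockdown contrast under hypoxia. In the normoxic knockdown contrast 1 of 12 regulators was at least 2-fold higher and 0 were 2-fold lower, against 12.1% and 5.56% of all genes, with a median log2 change of 0.37 beside 0.15. Under hypoxia the counts were 1 and 1, against 12% and 8.35%, and the median was -0.03 beside 0.10. These counts are near or below the background.

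Other genes of glutathione metabolism had a median log2 change of 0.40 with knockdown in normoxia and 0.34 in hypoxia, beside 0.15 and 0.10 for all genes. Of 18 such genes 2 and 3 were at least 2-fold higher and 0 were 2-fold lower in either state, and the higher counts are near the 12.1% and 12% of all genes. GSR, glutathione reductase, was at 36.3 FPKM in N-scr, 74.7 FPKM in N-si, 20.8 FPKM in H-scr and 55.1 FPKM in H-si, so both knockdown libraries were above both scrambled ones. GPX2, a glutathione peroxidase of epithelia, was at 11.6, 21.6, 27.9 and 43.5 FPKM in the same order, higher with hypoxia and with knockdown. GLRX, glutaredoxin, was at 3.86, 6.02, 13.4 and 10.3 FPKM, highest in H-scr.

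The thioredoxin and peroxiredoxin genes had medians of 0.07 in normoxia and -0.09 in hypoxia for the knockdown contrast, below those of all genes. With knockdown 1 of 14 was 2-fold higher and 1 was 2-fold lower in normoxia, and 0 were in either direction in hypoxia. Of all genes 12.1% were 2-fold higher and 5.56% lower in normoxia, and 12% and 8.35% in hypoxia. TXN, thioredoxin, the substrate of TXNRD1, was at 444 FPKM in N-scr, 326 FPKM in N-si, 259 FPKM in H-scr and 137 FPKM in H-si. Its N-si level was below N-scr, where the N-si level of TXNRD1 was above. PRDX4, the peroxiredoxin of the endoplasmic reticulum, was at 142, 124, 70.0 and 59.4 FPKM, lower in both hypoxia libraries. TXNIP, a thioredoxin-binding protein, was at 19.4, 23.0, 67.1 and 69.1 FPKM, higher in both.

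Among 13 other aldo-keto reductase, quinone and carbonyl genes, 4 were at least 2-fold higher with knockdown in each oxygen state and 0 were 2-fold lower. Over all genes 12.1% and 12% were higher and 5.56% and 8.35% lower in normoxia and hypoxia. The median log2 change was 0.43 in normoxia and 0.09 in hypoxia, beside 0.15 and 0.10 for all genes. The genes counted in hypoxia include CBR1 and CBR3 of chromosome 21, at 1.10 and 1.04, whose neighbours had medians of 0.92 and 0.96. In normoxia CBR3 was counted at 2.40, beside a neighbour median of 1.13, and its N-scr level rests on approximately 23 reads. UGT1A6, a glucuronosyltransferase that shares its last exons with the other UGT1A genes, was at 2.46 FPKM in N-scr, 34.6 FPKM in N-si, 5.26 FPKM in H-scr and 49.9 FPKM in H-si. EPHX1, microsomal epoxide hydrolase, was at 22.9, 82.0, 34.8 and 103 FPKM in that order. The knockdown libraries of both genes lay well above the scrambled ones, with log2 differences of 3.76 and 3.22 for UGT1A6 and 1.83 and 1.57 for EPHX1. ALDH3A1, an aldehyde dehydrogenase, was separated by oxygen instead, at 30.8, 19.2, 88.3 and 58.7 FPKM.

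**Figure D4:**
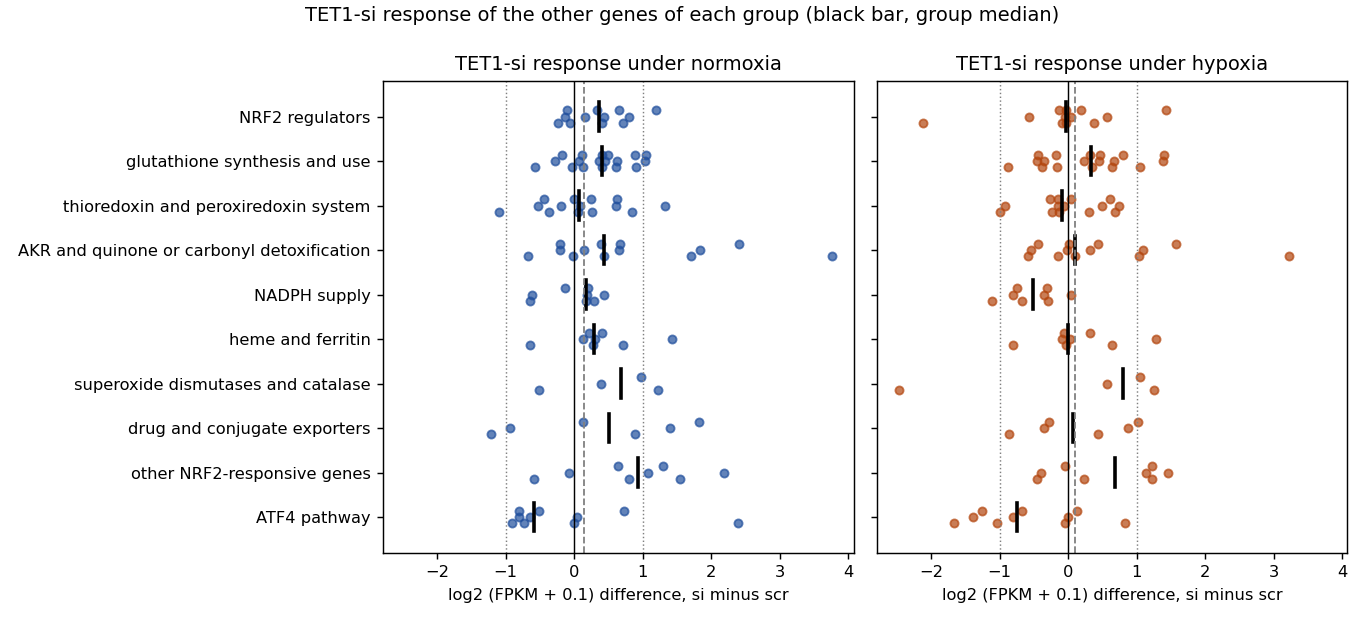
Knockdown response, as differences of log2(FPKM + 0.1), si minus scr, of the other genes in 10 groups, with 1 point per gene, a black bar at the group median, dotted lines at 2-fold and a dashed line at the median of all genes. The group of other NRF2-responsive genes has medians of 0.94 in normoxia and 0.68 in hypoxia, and the ATF4 group has -0.58 and -0.74.

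The remaining genes known to respond to NRF2 had group medians of 0.94 in normoxia and 0.68 in hypoxia, and 4 of 8 were at least 2-fold higher with knockdown in each state, against 12.1% and 12% of all genes. The 4 include TRIM16 and its copy TRIM16L in both states. OSGIN1, an oxidative-stress-induced growth inhibitor, was at 2.39 FPKM in N-scr, 11.2 FPKM in N-si, 4.74 FPKM in H-scr and 11.2 FPKM in H-si. PANX2, a pannexin, was at 2.33, 6.98, 6.43 and 17.9 FPKM in that order. TRIM16, a tripartite-motif protein, was at 42.9, 90.2, 48.0 and 113 FPKM, and reads cannot be assigned with certainty between it and TRIM16L. All 3 were higher in each knockdown library than in its scrambled partner, and TRIM16 lies among neighbours whose medians were 0.61 and 0.72.

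In a list drawn up around NADPH, the reductant for GSR, TXNRD1 and NQO1, 8 of 8 genes had a negative difference of hypoxia responses. The median was -0.49 on the log2 scale. Of all genes 55.4% were negative, with a median of -0.06. The pattern was not particular to this list. Negative differences were also seen in 9 of 10 ATF4-group genes, 9 of 12 regulators and 7 of 7 known hypoxia-response genes. They were seen in 10 of 13 aldo-keto reductase, quinone and carbonyl genes, but in 2 of 6 exporters and 1 of 4 dismutase and catalase genes. The NADPH list also holds PHGDH and MTHFD2, enzymes of serine and folate metabolism, so it is not a measure of NADPH supply. The median knockdown difference of the 8 genes was 0.18 in normoxia and -0.51 in hypoxia, beside 0.15 and 0.10 for all genes. PHGDH alone passed 2-fold, being lower in hypoxia, as were 8.35% of all genes. MTHFD2, a mitochondrial folate enzyme, was at 217 FPKM in N-scr, 199 FPKM in N-si, 112 FPKM in H-scr and 64.3 FPKM in H-si. PHGDH, the first enzyme of serine synthesis, was at 189, 120, 126 and 58.6 FPKM, and IDH1, cytosolic isocitrate dehydrogenase, at 64.7, 42.1, 139 and 82.8. MTHFD2, PHGDH and IDH1 were lower in each knockdown library than in its scrambled partner, against the direction of most of the 9 genes in normoxia. For MTHFD2 the normoxic log2 difference was only -0.13.

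In the heme and ferritin group 1 of 8 genes was at least 2-fold higher with knockdown in each state and 0 were 2-fold lower, with median log2 differences of 0.29 in normoxia and 0.00 in hypoxia. That is about the share of all genes, 12.1% and 12%, whose medians were 0.15 and 0.10. FECH, ferrochelatase, which makes heme, was at 8.88 FPKM in N-scr, 24.1 FPKM in N-si, 8.35 FPKM in H-scr and 20.5 FPKM in H-si. Its direction with knockdown was opposite to that of HMOX1, which breaks heme down. Of the 8 genes in the group 1 was lower with knockdown in normoxia and 4 were lower in hypoxia, against 39% and 42.9% of all genes. Of 4 dismutase and catalase genes 1 was 2-fold higher with knockdown in normoxia, and 2 were higher and 1 lower in hypoxia, with medians of 0.69 and 0.81. All genes had 12.1% higher in normoxia, 12% higher and 8.35% lower in hypoxia, and medians of 0.15 and 0.10. SOD2, the mitochondrial dismutase, was at 81.9, 57.1, 192 and 34.7 FPKM in that order, the same ranking of libraries as HMOX1, and it also met the study's 3 criteria. SOD1, the cytosolic dismutase, was at 91.3, 213, 64.1 and 153 FPKM, with log2 differences of 1.22 and 1.25 beside medians of 0.81 and 0.67 for its neighbours on chromosome 21. CAT, catalase, was at 15.0, 29.6, 19.5 and 40.2 FPKM, higher in both knockdown libraries.

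Of 6 drug and conjugate exporters, 2 were 2-fold higher and 1 was 2-fold lower with knockdown in normoxia, and 1 was 2-fold higher in hypoxia, with median log2 differences of 0.51 and 0.08. The shares of all genes were 12.1% and 5.56% in normoxia and 12% in hypoxia, with medians of 0.15 and 0.10. ABCC3 was at 19.1 FPKM in N-scr, 50.5 FPKM in N-si, 51.4 FPKM in H-scr and 94.1 FPKM in H-si. ABCC5 was at 35.04, 15.1, 32.4 and 26.6 FPKM in that order, lowest in N-si.

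SLC7A11 is also known as a target of ATF4, the transcription factor of the amino-acid response, so that pathway was set beside it. ATF4 itself, counted in the group below, was at 388 FPKM in N-scr, 221 FPKM in N-si, 344 FPKM in H-scr and 167 FPKM in H-si. Its log2 differences with knockdown were -0.81 in normoxia and -1.04 in hypoxia, below 46 and 50 of its 50 neighbours on chromosome 22. Of 10 ATF4-pathway genes, ATF4 included, 0 were at least 2-fold higher and 4 were 2-fold lower with knockdown in hypoxia. In normoxia 1 was 2-fold higher and 0 were 2-fold lower. Among all genes 12% were higher and 8.35% lower in hypoxia, and 12.1% and 5.56% in normoxia. PSAT1, of serine synthesis, was at 82.5 FPKM in N-scr, 44.01 FPKM in N-si, 23.3 FPKM in H-scr and 7.25 FPKM in H-si. SLC7A1, a cationic amino acid transporter, was at 38.5, 26.8, 28.5 and 11.9 FPKM, and ATF3, a stress-induced transcription factor, at 6.49, 34.5, 13.996 and 25.03. PSAT1 and SLC7A1 were lower in each knockdown library, where SLC7A11 was higher, and ATF3 was higher in each. With hypoxia in knockdown cells SLC7A11 (log2 change -1.17), PSAT1 (-2.58), SLC7A1 (-1.16) and ATF3 (-0.46) were all lower. So were 7 of the 10 ATF4-pathway genes, against 47.8% of all genes. The part of ATF4 in the level of SLC7A11 was not tested.

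As a description of the shared pattern, the log2 levels of each of the 9 genes were centred over the 4 libraries, and the median profile, in log2 units, was -0.13 (N-scr) and 0.42 (N-si) under normoxia, and -0.28 (H-scr) and -0.11 (H-si) under hypoxia. Among 9458 other protein-coding genes with a mean of at least 5 FPKM, FLYWCH2, ZBTB8OS and UBXN2A lay nearest to it, at Euclidean distances of 0.0706, 0.0712 and 0.0735 over the 4 libraries. FLYWCH2, for example, was at 13.96 FPKM in N-scr, 19.996 FPKM in N-si, 12.8 FPKM in H-scr and 14.5 FPKM in H-si. HMOX1, AKR1C1 and AKR1B10 had their highest levels in other libraries than this profile, which peaks in N-si.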

How the data were processed

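The authors deposited gene-level FPKM, 1 column per library, made from TruSeq mRNA libraries read at 100 bases with TopHat and Cufflinks on hg19 with Ensembl annotation, and versions are not given in the sources used here. The labels call the reads single end and the study's methods call them paired end. All 4 columns matched a library, and 0 others held per-sample values. Depth was recovered from 7887 one-exon genes, as the value at which low FPKM correspond to whole reads, and 97.4% to 97.7% of the low values did within 0.05. Approximate reads are FPKM times depth times the canonical transcript length (GENCODE v44lift37) less 213.5 bases. The 95% intervals of a ratio are exact (Clopper-Pearson), carry no pseudocount and cover counting error only. Changes are differences of log2(FPKM + 0.1), and genes with a mean of at least 1 FPKM on 1 row only formed the background. Calculations, checked on simulated data, used Python 3.11.15, numpy 2.4.6, pandas 2.3.3, scipy 1.17.1 and matplotlib 3.10.9. Start positions had 1 added.

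With 1 library per group no test was run. The genes and lists were chosen with earlier results of these data known. Beside the 9 genes and TET1, the text names NFE2L2, KEAP1, BACH1, the AKR paralogs, the 3 nearest profiles and, from each list, up to 3 genes with the largest mean absolute change among those with a mean of at least 5 FPKM and a 2-fold change in any contrast. Genes in the marker and repeated-row descriptions, and TRIM16L, CBR1, CBR3 and ATF4, fall outside this rule and were chosen after their values were seen. Alternatives were other pseudocounts, 3 scalings, a 1.5-fold limit and other filters. RefSeq entries of 300 bases (250 before the start and 50 from it on) gave the start sites.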

Additional observations from a re-analysis of the deposited data

Results flagged for a closer look

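Several genes had effects of opposite direction in the 2 groups in which the same contrast could be taken, with counting intervals that excluded 0 in both. With 1 library per group these differences were not tested. Only the NRF2 targets and genes selected from the lists were examined. How common such opposite effects were among all genes was not computed. The intervals cover counting error only and are narrow for genes with many reads. Being listed here therefore does not set these genes apart from others. HMOX1 had a log2 change with hypoxia of 0.64 in scrambled cells and of -0.53 in TET1-knockdown cells, a difference of -1.17. ATF3 did so by 1.10 and -0.46, a difference of -1.56. KEAP1 had 0.21 and -0.22 with hypoxia, and 0.34 and -0.10 with knockdown in normoxia and hypoxia, a difference of -0.43 by either route. ABCC5 had the reverse pattern, -0.11 in scrambled and 0.82 in knockdown cells, a difference of 0.93. Its change of -0.11 is smaller in size than the 0.12 by which TPM shifted the median of all genes in that contrast. The direction of ABCC5 in scrambled cells therefore depends on the scaling. SOD2, for which no counting interval was computed, had 1.23 and -0.72, a difference of -1.95, and was included because both changes passed 1.5-fold.

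In the knockdown contrast, GCLM had a log2 change of 0.44 in normoxia and -0.20 in hypoxia, a difference of -0.64. TXNRD1 had 0.42 and -0.07, a difference of -0.48, and its hypoxic value changed sign under TPM. GLRX had 0.63 and -0.38, a difference of -1.01.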

How the results depend on the processing

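No paired analysis was possible because each group had 1 library, and for the same reason no library could be left out. Of 270 values of single members under other settings, 260 kept their sign and 266 their side of 2-fold. Relative to the reported FPKM, median-of-ratios scaling shifted the median of all genes by -0.10, -0.08, -0.13 and -0.15 on the log2 scale in the order hypoxia in scrambled cells, hypoxia in knockdown cells, knockdown in hypoxia and knockdown in normoxia, and the shifts were -0.05, 0.00, -0.10 and -0.16 under upper-quartile scaling and 0.12, 0.14, 0.07 and 0.05 under TPM. The members' median hypoxia response in scrambled cells (-0.29) became -0.16 with a pseudocount of 1, -0.40 under median-of-ratios scaling, -0.17 under TPM and -0.14 over members with a mean of at least 5 FPKM. The median knockdown difference under hypoxia (0.19) became 0.043 under median-of-ratios scaling, 0.076 under upper-quartile scaling, 0.26 under TPM and 0.10 over members with a mean of at least 5 FPKM. In normoxia the median (0.47) became 0.43 with a pseudocount of 1, 0.30 under both median-of-ratios and upper-quartile scaling and 0.52 under TPM. The median difference of hypoxia responses (-0.46) became -0.40 under upper-quartile scaling. No median changed direction. At 1.5-fold in place of 2-fold, the members higher and lower in hypoxia were 2 and 1 in scrambled cells and 2 and 4 in knockdown cells, and with knockdown in normoxia 4 were higher and 1 was lower. The shares of all genes, in the same order, were 23.2% and 13.7%, 23.7% and 19%, and 24.7% and 12%. Under median-of-ratios and upper-quartile scaling HMOX1 passed 2-fold with knockdown in normoxia, so 1 member was lower, and under median-of-ratios scaling SRXN1 passed it with hypoxia in knockdown cells, so 3 were lower. Of 36 counting intervals 30 excluded 0, and 28 did at 0.25 of the approximate reads, a check added after seeing the data because transcript lengths are approximate. The intervals lost were those of HMOX1 and AKR1B10 for hypoxia in knockdown cells. All genes at least 2-fold changed numbered 1371 to 1836 at a mean of at least 5 FPKM and 5998 to 7309 with no filter, against 2619 to 3187. Depth limits AKR1B10 most, at 19 to 66 reads.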

Other observations

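Glutathione genes whose identifier stands on more than 1 row were left out of every count. MGST3, a microsomal glutathione transferase, had a row at 53.9 FPKM in N-scr, 63.8 FPKM in N-si, 0.181 FPKM in H-scr and 0.119 FPKM in H-si, and another at 0.0388, 0.0726, 75.7 and 0.119 in the same order. GPX3, the plasma glutathione peroxidase, had rows at 7.32, 7.23, 0.924 and 0.404 FPKM and at 0, 0, 6.09 and 0.404. In H-si both rows of each gene held the same value. The level of neither gene in hypoxia can be read from these rows.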
